A study of Mus musculus with 6 samples.

Results

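The genes described here are 10 that encode adapters with an immunoreceptor tyrosine-based activation motif (ITAM), the receptors that signal through them, and the kinase Syk. They were matched by symbol in the deposited count files, where each of the 10 had 1 of 23282 entries. The 10 were chosen by their levels in the comparison described below, so those levels are given as a description and no test is applied to them. All 6 libraries came from BMOL cells, labelled as a progenitor line of mouse liver. Of these, 3 were labelled vector control and 3 were labelled as carrying TXNIP-expressing constructs (titled TXNIP overexpressed); TXNIP is thioredoxin-interacting protein, an alpha-arrestin. No other treatment or time is labelled. The sources used here do not give the design of the constructs, their promoter, whether the lines were clones or whether the 3 libraries of a group were separate cultures. Any p-value therefore measures only the spread between these libraries.

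ITAM adapters are small transmembrane proteins with almost no extracellular part, which pair with receptors that bind ligand but cannot signal alone. When ligand clusters the receptor, Src-family kinases phosphorylate the paired tyrosines of the ITAM, Syk docks on them through its tandem SH2 domains, and phagocytosis, cytokine release and calcium entry follow. Fcer1g encodes the Fc receptor gamma chain and Tyrobp encodes DAP12. Both are known from myeloid and natural killer cells, and in liver from Kupffer cells and recruited macrophages rather than from epithelium. In the set, Fcgr1, Fcgr3 and Fcgr4 encode activating receptors for immunoglobulin G that need the gamma chain. Fcgr2b is not an activating receptor gene, since it encodes the inhibitory Fc gamma receptor, which carries an inhibitory motif in its own tail. Hcst encodes DAP10, an adapter with a motif for phosphatidylinositol 3-kinase in place of an ITAM.

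Total counts ranged from 8725624 to 15119775 per library. Txnip stood at 38.3, 9.63 and 10.8 CPM (read counts scaled to a library size of 1e6) in the controls and at 217, 299 and 290 CPM in the TXNIP overexpressed libraries. Within each group replicate 1 stood apart from the other libraries: the chi-square statistic of a pair, divided by its degrees of freedom, was 23.1 to 28.3 with replicate 1 and 6.4 and 6.51 for replicates 2 and 3. The markers of the labelled cell type went against the label in the TXNIP overexpressed libraries. The summed level of 10 liver progenitor and ductular markers was 1630 to 2100 CPM in control libraries, against 0.0907 to 1.26 CPM with TXNIP, where 6 of the 10, among them Sox9 and Epcam, had no read. The summed level of 10 macrophage markers was 25.6 to 33.0 CPM in control libraries, against 3950 to 4440 CPM with TXNIP. Of these 10, Mertk and Cd163 had no read in the TXNIP overexpressed libraries. Mrc1 was not higher there, with a mean of 0.124 CPM in controls and 0.121 CPM with TXNIP. The control sum was almost all Csf1r (mean 28 CPM). Whether this difference in cell type markers accounts for the levels below was not tested. In such bulk libraries, fewer cells of a type and less RNA per cell cannot be told apart.

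Promoter sequence is shown for 4 of the genes, 3 of them among the most abundant and 1 for its pair of motifs, because the 10 genes were high in the same libraries. Each is the run of 250 bases before the RefSeq start (GRCm38.p6, the same assembly as mm10), 5′ to 3′ on the gene's strand. They lie at chr1:171234350-171234599 (minus strand), chr6:40585806-40586055 (minus), chr17:48346151-48346400 (plus) and chr1:171018676-171018925 (plus). Capitals mark GAGGAA, a core of the sites bound by the myeloid factor PU.1, and GGAAGT, a core of ETS factor sites, on either strand (on the other strand they read TTCCTC and ACTTCC); the motifs can overlap each other.
Fcer1g: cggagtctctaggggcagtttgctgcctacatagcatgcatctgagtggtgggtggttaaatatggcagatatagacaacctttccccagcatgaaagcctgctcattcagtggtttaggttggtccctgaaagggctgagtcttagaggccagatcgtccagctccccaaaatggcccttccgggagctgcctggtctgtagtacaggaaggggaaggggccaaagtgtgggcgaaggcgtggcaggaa
Clec5a: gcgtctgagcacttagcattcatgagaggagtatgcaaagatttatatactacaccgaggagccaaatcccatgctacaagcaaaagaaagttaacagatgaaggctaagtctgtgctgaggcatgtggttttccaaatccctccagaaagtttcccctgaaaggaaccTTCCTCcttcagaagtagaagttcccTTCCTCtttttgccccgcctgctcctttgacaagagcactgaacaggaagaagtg
Trem2: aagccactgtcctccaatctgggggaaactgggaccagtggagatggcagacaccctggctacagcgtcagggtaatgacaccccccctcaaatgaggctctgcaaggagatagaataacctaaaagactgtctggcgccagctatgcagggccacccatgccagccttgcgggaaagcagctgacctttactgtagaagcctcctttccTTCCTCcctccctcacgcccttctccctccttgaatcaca
Fcgr4: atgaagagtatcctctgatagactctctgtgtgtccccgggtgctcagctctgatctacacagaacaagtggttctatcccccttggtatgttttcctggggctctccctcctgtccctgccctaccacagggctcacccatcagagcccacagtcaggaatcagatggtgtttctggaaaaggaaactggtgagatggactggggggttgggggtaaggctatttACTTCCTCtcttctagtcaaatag

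Neither motif occurred in the window of Fcer1g, the most abundant of the genes. Clec5a held GAGGAA at 2 positions, Trem2 at 1, and Fcgr4 held GAGGAA and GGAAGT overlapping. The RefSeq table gave 11 windows for 9 of the genes, and Tyrobp had none. GAGGAA was in 7 of the 11 windows (63.6%), against 23.3% of all 32851 windows of the same length, and the 7 covered 6 genes (Trem2, Fcgr1, Fcgr3, Fcgr4, Clec5a and Syk). The pair of Fcgr3 windows overlap almost entirely, so they are not separate observations. For Syk, GAGGAA was in the window chr13:52596632-52596881 only. The other Syk window, chr13:52583187-52583436, nearer the annotated start of the gene, held none. GGAAGT was in 4 windows (36.4%, against 19.7% of all), those of Fcgr1, Fcgr2b, Fcgr4 and Hcst. The motif of C/EBP factors searched as TTGCNNAA was found only at Fcgr3 (9.6% of all windows), the AP-1 motif TGANTCA only at Trem2 (6.7%) and TATAAA only at Clec5a (12.4%). CACGTG, the E-box core, was in none of the 11 windows and in 6.0% of all. These matches describe letters in a window and say nothing of binding.

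In CPM, reads of all 10 genes were higher in every TXNIP overexpressed library than in any control. Among the 12088 genes tested by edgeR, 33.6% had groups that did not overlap in that direction, and 9 of the 10 were among the tested genes; since the genes were chosen on this contrast, nothing is read from the count. Over the 3 controls the 10 genes together had 16 reads, and over the other 3 libraries 47939. The numbers of reads were 8, 6 and 2 in control replicates 1, 2 and 3, and 12492, 16940 and 18507 in TXNIP overexpressed replicates 1, 2 and 3. Leaving out a library can hardly undo such a separation, so its persistence without any 1 of the 6 libraries is not read as support.

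**Figure D1:**
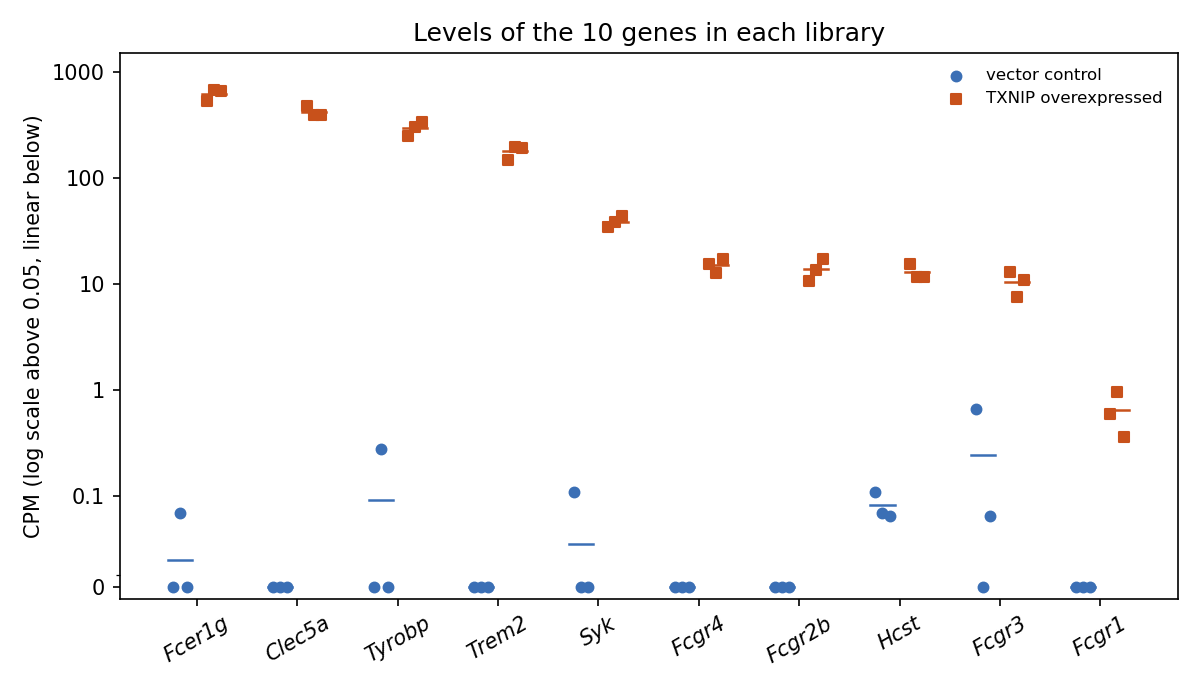
Levels of the 10 genes in CPM (vertical axis, logarithmic above 0.05 and linear below), ordered by their mean in the TXNIP overexpressed libraries. Points are libraries (circles, vector control; squares, TXNIP overexpressed, 3 each) and bars are group means. No gene's groups overlap, and the means of the TXNIP overexpressed libraries run from 618 CPM for Fcer1g to 0.641 CPM for Fcgr1.

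Of the adapters, Fcer1g had the highest level of the 10 genes. Fcer1g (chromosome 1, 171229572 to 171234365, minus strand; GRCm38 coordinates here and below from GENCODE M21) had 0, 1 and 0 reads in control replicates 1, 2 and 3. It had 4414, 6919 and 7272 reads in the TXNIP overexpressed libraries, which is 524.5, 669.2 and 659.6 CPM. Replicate 1 was the lowest of the 3, and the group mean was 618 ± 80.9 CPM (SD, n = 3). The ratio of pooled counts was 24260, with an exact 95% interval of 4354 to 958300. The width of that interval comes from the single control read, in replicate 2, and without that library no control read was left. Here and below, intervals and the floor of 3 reads cover counting error only.

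Tyrobp (chromosome 7, 30413760 to 30417585, plus strand) had 4 control reads, all in replicate 2. It had 248, 300.4 and 333 CPM in the TXNIP overexpressed libraries, on average 294 ± 42.7 CPM (SD, n = 3). The ratio of pooled counts was 2891 (exact 95% interval 1129 to 10610). For each Fcer1g read there were 0.473, 0.449 and 0.505 Tyrobp reads in replicates 1, 2 and 3. The exact 95% intervals of replicate 2 (0.43 to 0.468) and replicate 3 (0.485 to 0.526) did not overlap; they cover counting error only.

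Hcst (chromosome 7, 30417712 to 30419854, minus strand), the adapter known as the partner of NKG2D, had far fewer reads than its neighbour Tyrobp, also per kilobase of exon. It had 1 read in each control and 15.3, 11.5 and 11.6 CPM in the TXNIP overexpressed libraries (12.8 ± 2.18, SD, n = 3), a ratio of 163 (exact 95% interval 55.5 to 796). For each Tyrobp read there were 0.0617, 0.0383 and 0.0348 Hcst reads. The genes run towards each other and their annotated ends are 126 bases apart. The annotated exons do not overlap, but the sources used here do not say whether counting used strand. Klrk1, which encodes NKG2D itself, had no read in any library.

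Among the receptors that pair with DAP12, Clec5a (chromosome 6, 40574894 to 40585821, minus strand), a C-type lectin that binds flaviviruses and other glycan ligands, had the most reads in the set. No control had a Clec5a read. The TXNIP overexpressed libraries had 474.8, 388.5 and 394.5 CPM (419 ± 48.2, SD, n = 3), at least 5427-fold higher than the floor of 3 reads over the controls. Clec5a was highest in replicate 1, where Fcer1g, Tyrobp and Trem2 were lowest. In replicate 1 there were 0.905 Clec5a reads for each Fcer1g read (exact 95% interval 0.867 to 0.945), against 0.581 (0.558 to 0.604) in replicate 2 and 0.598 (0.576 to 0.621) in replicate 3. The interval of replicate 1 did not overlap those of the other libraries, while those of replicates 2 and 3 overlapped each other.

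Trem2 (chromosome 17, 48346401 to 48354147, plus strand) encodes a lipid-sensing receptor of macrophages, osteoclasts and microglia. It had no control read and 147, 196 and 191 CPM in the TXNIP overexpressed libraries (178 ± 26.9, SD, n = 3), at least 2304-fold higher than the floor. There were 0.592, 0.653 and 0.573 Trem2 reads for each Tyrobp read in replicates 1, 2 and 3, and the intervals of replicates 2 and 3 did not overlap (0.617 to 0.691 and 0.542 to 0.604). Per Tyrobp read, Clec5a gave 1.91, 1.29 and 1.18 reads in the same libraries. Without TXNIP overexpressed replicate 1 the mean levels were 671 CPM for Fcer1g, 320.1 for Tyrobp, 195 for Trem2 and 396 for Clec5a, each within 1 SD of the mean over all 3.

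The Fc receptor genes had far fewer reads than the gamma chain they need. Fcgr4 (chromosome 1, 171018920 to 171029761, plus strand) had no control read and 15.4, 12.6 and 17.1 CPM in the TXNIP overexpressed libraries (15.1 ± 2.31, SD, n = 3), at least 195-fold higher than the floor. Fcgr3 (chromosome 1, 171051174 to 171064935, minus strand) had 6, 0 and 1 reads in the controls and 13.1, 7.54 and 10.8 CPM (10.5 ± 2.78, SD, n = 3), a ratio of 57.2 (exact 95% interval 27.4 to 143). Fcgr1 (chromosome 3, 96282909 to 96293969, minus strand), the high-affinity receptor gene, had no control read and 5, 10 and 4 reads in the TXNIP overexpressed libraries. That is 0.641 ± 0.305 CPM (SD, n = 3), at least 8.30-fold higher than the floor, and Fcgr1 was the 1 gene of the 10 with too few reads to be tested. For each Fcer1g read there were 0.0249, 0.0113 and 0.0164 Fcgr3 reads and 0.0295, 0.0188 and 0.026 Fcgr4 reads.

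The inhibitory receptor gene Fcgr2b (chromosome 1, 170958617 to 170976547, minus strand) had about as many reads as Fcgr4, and per kilobase of exon fewer. It had no control read and 10.7, 13.4 and 17.3 CPM in the TXNIP overexpressed libraries (13.8 ± 3.33, SD, n = 3), at least 179-fold higher than the floor. For each Fcgr4 read there were 0.692, 1.07 and 1.01 Fcgr2b reads, and all 3 exact 95% intervals overlapped (0.523 to 0.913, 0.836 to 1.37 and 0.822 to 1.24). Fcgr2b, Fcgr4, Fcgr3 and Fcer1g lie within 275.7 kb of chromosome 1. Fcgr2b and Fcgr3 are close copies over their extracellular part. Of the windows of 75 bases (the read length) in each gene's longest protein-coding transcript, 9.25% of those of Fcgr2b and 7.38% of those of Fcgr3 also occurred in a transcript of another gene. For Fcgr3 that other gene was Fcgr2b alone, so their counts are uncertain to the extent that reads fell there. The other 8 genes of the set shared no such window with another gene.

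Syk (chromosome 13, 52583173 to 52648792, plus strand), the kinase on which the adapters converge, had 1 control read, in replicate 1. It had 34.6, 38.1 and 43.4 CPM in the TXNIP overexpressed libraries (38.7 ± 4.41, SD, n = 3), a ratio of 1516 (exact 95% interval 272 to 59950). There were 0.0659, 0.0569 and 0.0657 Syk reads for each Fcer1g read. Its coefficient of variation over the 3 libraries was 11.4%, against 11.5% for Clec5a, 13.1% for Fcer1g, 26.5% for Fcgr3 and 47.5% for Fcgr1.

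Fcer1g, Clec5a and Tyrobp together took 83.2% of the reads of the 10 genes, averaged over the TXNIP overexpressed libraries. The share of Fcer1g was 35.3%, 40.8% and 39.3% in replicates 1, 2 and 3, and that of Clec5a was 32.0%, 23.7% and 23.5%. Trem2 took 11.1% ± 1.06 and Syk 2.41% ± 0.147 (SD, n = 3). Each of the remaining 5 genes took at most 1.04% in any of these libraries.

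**Figure D2:**
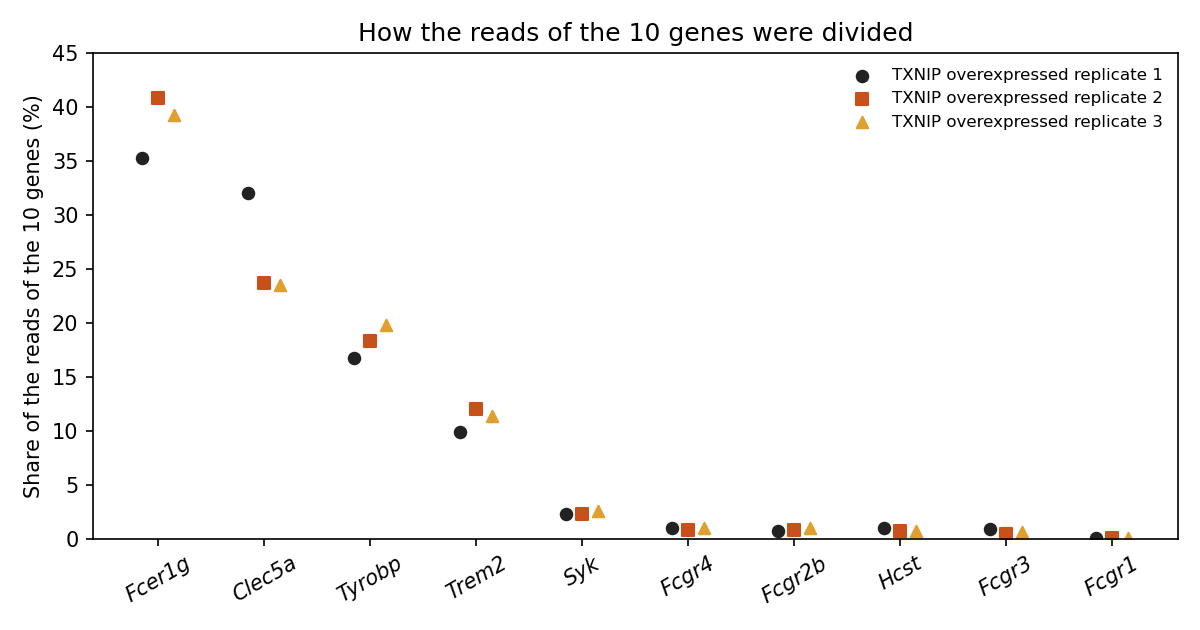
Share of the reads of the 10 genes that fell on each gene (vertical axis, percent), in TXNIP overexpressed replicates 1, 2 and 3 (circles, squares and triangles). Clec5a took 32.0% in replicate 1 and 23.7% and 23.5% in the other libraries, and Fcer1g took 35.3%, 40.8% and 39.3%.

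By CPM the order of mean levels in these libraries was Fcer1g, Clec5a, Tyrobp, Trem2, Syk, Fcgr4, Fcgr2b, Hcst, Fcgr3 and Fcgr1. The labels name a Lexogen Quant-Seq kit, a name used for libraries of transcript 3' ends, whose reads do not scale with length. Whether the labelled catalogue number belongs to that kit could not be checked, and the files do not show where reads fell, so the order was also taken per kilobase of annotated exons. Per kilobase it was Fcer1g (707 ± 92.5 CPM per kb, SD, n = 3), Tyrobp (441 ± 64.1), Clec5a (109 ± 12.5), Trem2 (36.0 ± 5.43), Hcst (17.8 ± 3.02), Fcgr4 (11.99 ± 1.84), Fcgr3 (6.03 ± 1.60), Syk (4.13 ± 0.471), Fcgr2b (2.39 ± 0.575) and Fcgr1 (0.248 ± 0.118). Fcer1g was first and Fcgr1 last on both scales. In CPM the ranges of the neighbours Fcgr4 and Fcgr2b, Fcgr2b and Hcst, and Hcst and Fcgr3 overlapped, and the other neighbours in the order were separate in the 3 libraries. Per kilobase only Fcgr3 and Syk overlapped. Exon length here is the union over all annotated transcripts, which for Trem2 (4946 bases) far exceeds its longest protein-coding transcript (1088 bases). For Clec5a these lengths are 3840 and 3747 bases. By transcript length Trem2 would precede Clec5a, so the order of this pair rests on the length chosen.

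The few control reads are given as shares of the other group's level, as a description without a test, since most of the reads of Fcgr3 and all of Tyrobp came from 1 library. The control level of Fcgr3 was 1.75% of its level in the other group (exact 95% interval 0.697 to 3.65) and that of Hcst 0.612% (0.126 to 1.80). The corresponding values were 0.0346% (0.00942 to 0.0886) for Tyrobp and 0.00412% (0.000104 to 0.0230) for Fcer1g, the most abundant gene. For Clec5a and Trem2, with no control read, 3 reads would have been 0.0184% and 0.0434%. Of the 7 control reads of Fcgr3, 6 were in control replicate 1, where Txnip was also higher than in the other controls, and without that library the value for Fcgr3 was 0.327%. Without control replicate 1 no control read of Syk was left, and without control replicate 2 none of Tyrobp or Fcer1g. The source of these reads was not tested.

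**Figure D3:**
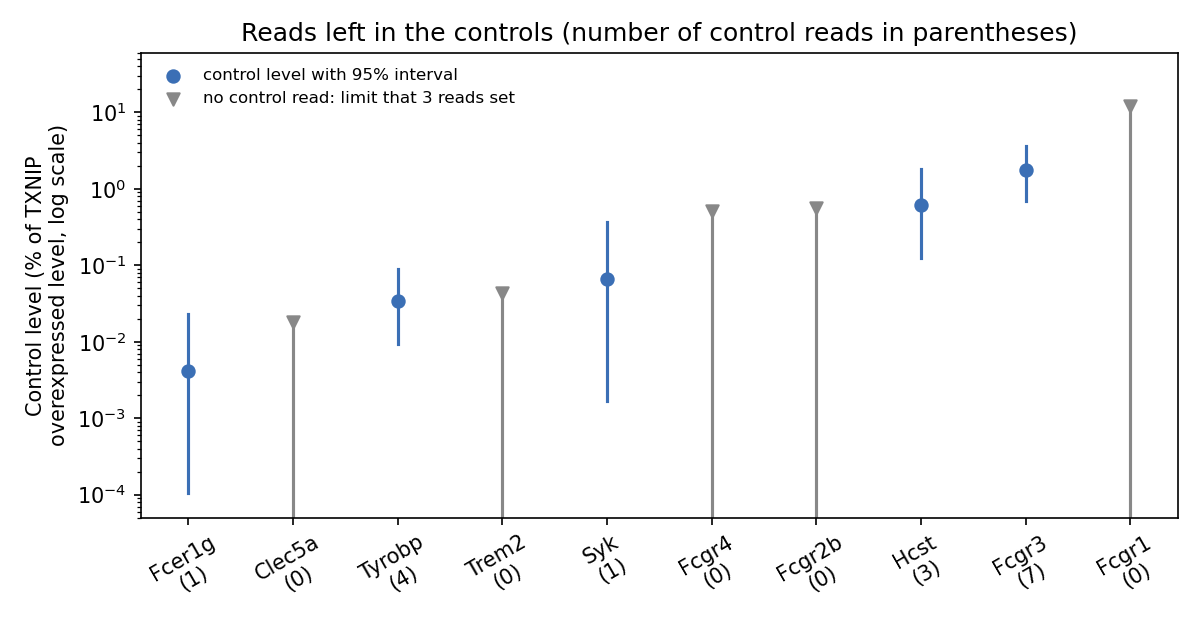
Control level of each gene as a percent of its TXNIP overexpressed level (vertical axis, logarithmic), from pooled counts of 3 libraries a group. Points with lines give the exact 95% interval, triangles the limit that 3 reads set where the controls had none, and the number of control reads is in parentheses; Fcgr3 and Hcst lie above Tyrobp and Fcer1g.

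Other receptors known to pair with ITAM adapters, or to carry part of an ITAM themselves, were counted from a list of 34. Of these, 32 were in the files and 12 had enough reads to test, of which 11 rose, none fell and 1 did not pass. Across all tested genes 30.6% rose and 33.9% fell, 64.5% in all (edgeR's quasi-likelihood test, adjusted p under the threshold of 0.05). Of the 12, 10 had no control read. They had enough reads to test only through the group where they were high, which fixed their direction. The same held for Cd300lb, with 17 control reads, so the direction of all 11 that rose was fixed. The count is a description and is not read against those shares. The median log2 fold change of the 12 was 9.28, or 6.94 with those 10 genes set at the floor, and that of all tested genes was -0.04. The most abundant were Clec4d (334 ± 17.9 CPM, SD, n = 3) and Clec4e (111.5 ± 7.05 CPM), which encode the glycolipid-sensing lectins MCL and Mincle of the gamma chain. Both had no control read and were at least 4320-fold and 1440-fold higher than the floor. Cd300ld (102 ± 31.9 CPM, no control read) was at least 1310-fold higher. Cd300lb, a DAP12 partner, rose from 0.413 ± 0.248 to 107 ± 18.7 CPM (SD, n = 3), with a log2 fold change of 7.90 ± 0.296 (SE).

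Trem1 and Trem3, relatives of Trem2 named after their values were seen, were among the genes that rose. Trem3 had 60.9 ± 8.80 CPM and Trem1 had 10.3 ± 3.23 CPM (SD, n = 3), both with no control read, while Treml2 had 1 control read and 2 TXNIP reads and was not tested. The gene that did not pass was Plxna1, the plexin that forms a complex with TREM2 and DAP12, whose control level of 37.1 ± 8.61 CPM compared with 27.9 ± 3.03 CPM under TXNIP (edgeR adjusted p = 0.0855). Without control replicate 1 it passed as lower, with an adjusted p of 0.0092, and so it did with library size alone (0.0478); over all alternatives the adjusted p of Plxna1 ran from 0.0092 to 0.768. Pira1 and Pira2, which encode near-identical receptors, had the same count in each of the 6 libraries, so reads of this pair cannot be assigned to 1 copy. Of the 32 genes in the files, 7 had no read in any library, among them Fcer1a of mast cells, Ncr1 of natural killer cells and Gp6 of platelets. The platelet receptor gene Clec1b had 8 reads, all in the TXNIP overexpressed libraries, and the natural killer receptor gene Klra4 had 3, all in the controls.

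None of the 8 other signalling chains with ITAMs on the list had enough reads to test. Cd3e and Cd79a had no read in any library, Cd79b and Ms4a2 had none in the TXNIP overexpressed libraries, and Cd3d and Cd3g had 1 and 3 reads there and none in the controls. Cd247, the zeta chain gene, had 37 reads over the controls and 15 over the other group. The markers of lymphoid and mast cells were low in the same libraries. All 6 B cell markers and all 8 mast cell and basophil markers had no read in the TXNIP overexpressed libraries, where 6 of 7 natural killer cell markers also had none. The summed level of the 9 T cell markers was 3.58 to 6.71 CPM there, from 0.196 to 1.43 CPM in the controls. Cd3e, Cd8a, Cd4 and Cd2 were at 0 there, and Lck at 3.69 ± 1.48 CPM. That of 8 neutrophil markers was 5.80 to 6.87 CPM, from 0.66 to 1.05 CPM in the controls, with Cxcr2 at 5.73 ± 0.481 CPM. The 6 dendritic cell markers summed to 1.26 to 4.99 CPM, against 2.74 to 3.60 CPM in the controls. Kupffer cell markers summed to 0.0907 to 0.594 CPM with Clec4f, Vsig4, Timd4 and Marco at 0. The 6 osteoclast markers summed to 316 to 398 CPM, from 0.196 to 0.330 CPM in the controls, with Calcr at 0. The 6 microglia markers summed to 367 to 488 CPM, from 19.5 to 30.2 CPM in the controls, with P2ry12, Sall1, Gpr34 and Slc2a5 at 0 in the TXNIP overexpressed libraries. The TXNIP sum was almost all Cx3cr1 (408 ± 68.6 CPM), a fractalkine receptor gene that other macrophages also express, and the control sum almost all Sall1 (22 ± 4.87 CPM, SD, n = 3). The part of other cell types in these levels was not tested.

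Of 16 kinases of the Src, Syk and Tec families and their regulators, 12 were tested, of which 9 rose, 1 fell and 2 did not pass. The median log2 fold change was 2.77 (2.78 with genes without reads in a group at the floor). Across all tested genes 30.6% rose and 33.9% fell, and the count is a description that is not read against those shares. Lyn, which phosphorylates ITAMs in myeloid cells, rose from 46.1 ± 3.76 to 356 ± 23.6 CPM (log2 fold change 2.95 ± 0.130 SE, edgeR adjusted p = 1.46e-09). Csk, which holds Src-family kinases inactive, rose 2.61-fold, from 47.1 ± 3.52 to 123 ± 4.88 CPM. Fyn stood at 34.0 ± 6.46 and 44.4 ± 6.22 CPM and Src at 39.4 ± 7.16 and 25.01 ± 10.1 CPM, and neither passed (edgeR adjusted p = 0.0862 and 0.0636). Src passed as lower without control replicate 1 (adjusted p = 0.0384), without TXNIP overexpressed replicate 2 (0.0451), with library size alone (0.0467), with DESeq2 (0.0435) and with a replicate block (0.00927), and over all alternatives its adjusted p ran from 0.00927 to 0.346. Named after their values were seen, Btk, a Tec-family kinase of B cells and myeloid cells, had no control read and 41.7 ± 16.2 CPM, and Yes1 had 17.2 ± 3.57 CPM in the controls and not a single read with TXNIP (at least 171-fold lower). Zap70, the counterpart of Syk in T cells, had no read in any library.

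Downstream of Syk, 30 of 36 listed adaptors and effectors were tested, of which 23 rose, 2 fell and 5 did not pass. The median log2 fold change was 1.94. This count, too, is not read against the 30.6% of all tested genes that rose and the 33.9% that fell. Lat2, a membrane scaffold of myeloid and B cells, rose from 3.54 ± 0.935 to 573 ± 56.0 CPM (log2 fold change 7.31 ± 0.200 SE, edgeR adjusted p = 4.85e-11). Rac2, the GTPase of leukocytes, had no control read and 442 ± 65.4 CPM, at least 5720-fold higher, while its broadly expressed relative Rac1 fell from 457 ± 29.1 to 320.5 ± 51.8 CPM (log2 fold change -0.51 ± 0.138 SE, edgeR adjusted p = 0.00599). Skap2 rose 4.14-fold, from 85.2 ± 8.29 to 353 ± 23.3 CPM. Chosen after their values were seen, Lcp2 (SLP-76) had no control read and 121 ± 5.63 CPM. Plcg2, the phospholipase that TREM2 signalling uses, rose from 0.526 ± 0.346 to 75.4 ± 7.41 CPM, and Blnk, the B cell linker, fell from 57.3 ± 1.64 to 11.3 ± 1.42 CPM. Card9, which links Syk to NF-kappaB, was tested at a low level, with no control read and 2.73 ± 1.13 CPM.

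Negative regulators of this signalling were counted in the same way. Of 31 listed inhibitory receptors, phosphatases and adaptors, 26 were tested, of which 23 rose and 3 fell, with a median log2 fold change of 7.14 (6.36 with genes without reads in a group at the floor). Among the 26, 9 had no control read and could be tested only as higher. The same was true of 2 of the kinases and 3 of the adaptors and effectors above. Some genes with few control reads also had enough reads only in the TXNIP overexpressed libraries. Examples are Sirpa, Dok2 and Dok3 here, Fgr and Txk of the kinases, and Fyb and Vav1 of the effectors. Siglecg and Yes1, with no read in the TXNIP overexpressed libraries, could be tested only as lower. The counts of these lists are therefore descriptions. They are not read against the 30.6% of all tested genes that rose and the 33.9% that fell. The receptor gene Lilrb4a had no control read and 378 ± 81.9 CPM, at least 4890-fold higher. Cd72 rose from 39.9 ± 6.07 to 278 ± 3.48 CPM, and the phosphatase gene Inppl1 (SHIP2) rose 1.42-fold, from 121 ± 12.5 to 172 ± 7.34 CPM. Its relative Inpp5d (SHIP1), named after its value was seen, had no control read and 39.7 ± 5.13 CPM. Ptpn6, which encodes SHP-1 and was also named after its value was seen, rose from 3.34 ± 1.87 to 252 ± 19.8 CPM (log2 fold change 6.17 ± 0.295 SE, edgeR adjusted p = 9.36e-09). Ptpn11, encoding the widely expressed SHP-2, fell from 127 ± 16.3 to 89.2 ± 9.80 CPM, a call lost without TXNIP overexpressed replicate 3 (edgeR adjusted p = 0.0517; 0.00193 to 0.645 over all alternatives). The other falls were those of Pag1 and Siglecg. Sla2, with the highest mean log2 CPM of the list, passed as higher at 203 ± 7.77 and 257.5 ± 34.1 CPM (edgeR adjusted p = 0.0321), and that call was lost without control replicate 2 or 3 or TXNIP overexpressed replicate 2 or 3 (adjusted p = 0.0965 to 0.111) and with library size alone (0.0827); over all alternatives its adjusted p ran from 0.00186 to 0.997.

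Ligands reported for TREM2 and the proteases that shed it moved in both directions, with 8 higher, 4 lower and 4 not past of 16 tested and a median log2 fold change of 0.59. The shares were 50% higher and 25% lower, against 30.6% and 33.9% of all tested genes, and were not tested against them. Clu, with 7316 control reads and 17 TXNIP reads, had enough reads to test only in the controls, which fixed its direction as lower. The sheddase gene Adam17 rose 5.30-fold, from 93.5 ± 12.3 to 496 ± 55.0 CPM (log2 fold change 2.41 ± 0.142 SE, edgeR adjusted p = 1.95e-08). For Adam10, the other sheddase, the levels were 77.2 ± 16.0 and 86.3 ± 10.7 CPM (edgeR adjusted p = 0.401). Lgals3 (galectin-3) rose 1.97-fold, from 416 ± 62.3 to 820.1 ± 33.0 CPM, and Hspd1 rose 1.52-fold, from 492 ± 45.3 to 746 ± 86.6 CPM. App fell from 176 ± 44.3 to 107 ± 11.96 CPM. The apolipoprotein genes, named after their values were seen, differed in level. Apoe was low in both groups (3.02 ± 0.845 and 4.53 ± 1.25 CPM, edgeR adjusted p = 0.243), and Clu fell by 8.43 on the log2 scale to 0.545 ± 0.291 CPM. The 4 lower calls were App, Clu, Aph1b and Ttr, and those of Aph1b and Ttr were lost when some libraries were left out. Aph1b was lost without control replicate 1 (adjusted p = 0.0795) or 3 (0.0691) or TXNIP overexpressed replicate 2 (0.115) or 3 (0.0913), and ranged from 0.00778 to 0.115 over all alternatives. Ttr was lost without control replicate 1 (0.194) or TXNIP overexpressed replicate 1 (0.117) or 2 (0.096), and ranged from 0.00803 to 0.194.

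**Figure D4:**
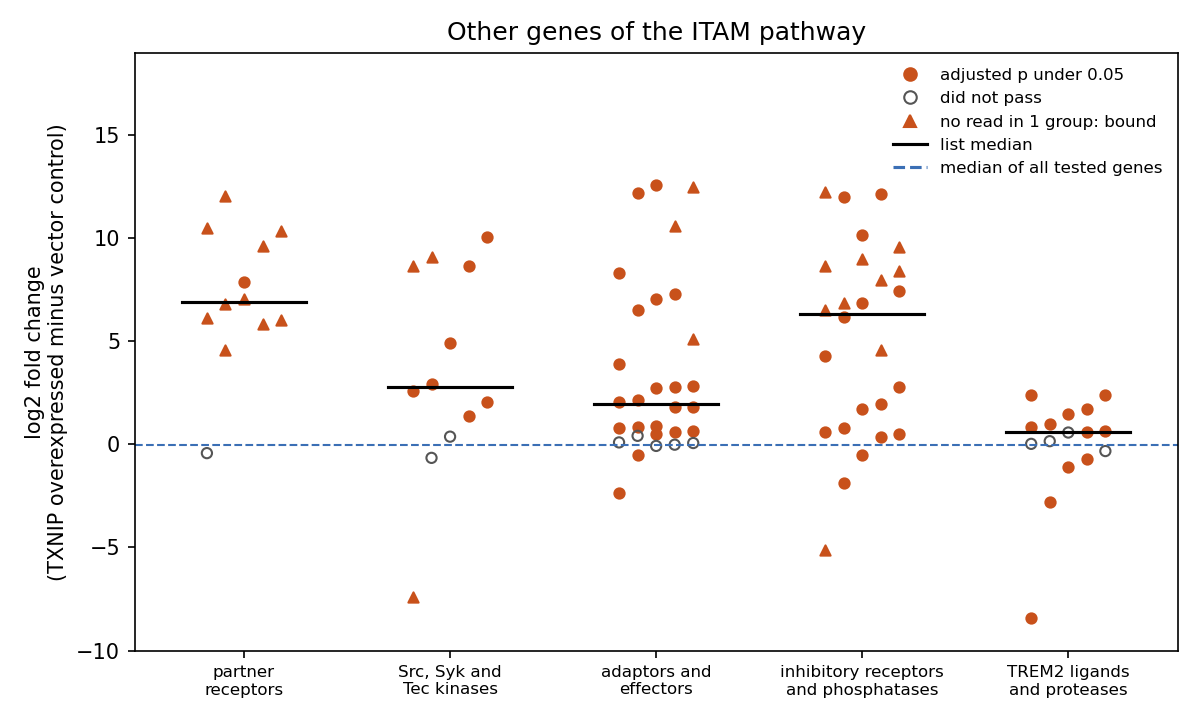
Log2 fold change (TXNIP overexpressed minus vector control) of the tested genes of 5 lists, with filled symbols for an edgeR adjusted p under 0.05. Triangles are genes with no read in 1 group, placed at the bound that 3 reads set, and genes with 1 to 3 reads in a group are placed at the ratio of counts; list medians (black) lie between 0.59 and 6.94, against -0.04 for all tested genes (dashed).

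Genes beside the 10 on the chromosome were looked up, taking the nearest annotated gene on either side that was in the files. Of 14 such genes outside the set, 6 were tested, of which 2 rose, 3 fell and 1 did not pass. Treml1, Lrfn3 (48 control reads, 1 TXNIP read) and Cfap126 (94 and 16) had enough reads to test in only 1 group, which fixed their direction. With 30.6% of all tested genes higher and 33.9% lower, nothing about the neighbours is read from so few. Nfkbid, an inhibitor of NF-kappaB family 1877 bases from Hcst, rose from 5.96 ± 1.29 to 37.6 ± 5.62 CPM (log2 fold change 2.66 ± 0.229 SE, edgeR adjusted p = 6.63e-07). Treml1, 5768 bases from Trem2, also rose, from no read to 5.37 ± 2.60 CPM. Olfr460 and Tas2r138, the genes on either side of Clec5a, had no read in any library.

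The genes with the most similar levels over the 6 libraries were taken by Euclidean distance of log2(CPM + 1), which in libraries of 2 groups mostly follows the group means. Nearest to Fcer1g were the chemokine gene Ccl4 (distance 0.246), Tnf (0.311) and Pid1 (0.353). Nearest to Tyrobp were Srgn, which encodes the granule proteoglycan serglycin (0.405), the tetraspanin gene Cd53 (0.451) and the NADPH oxidase subunit gene Ncf1 (0.467). Nearest to Trem2 were the transporter gene Slc6a12 (0.114), Dcstamp, a gene of osteoclast and macrophage fusion (0.298), and Cd52 (0.403).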

How the data were processed

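RNA was measured in 6 libraries of BMOL cells, 3 per group as titled. Libraries were prepared with Lexogen Quant-Seq reagents from Trizol RNA, per the labels' protocols. Per the submitters' processing notes the tools were Bowtie2 and bedtools and the build mm10; of versions, annotation, strand and duplicates the sources used here say nothing. Each of the deposited tables gives unnormalized counts for 23282 gene symbols. Counts were filtered with filterByExpr, which left 12088 genes, scaled with TMM factors and tested with edgeR 4.0.16 (R 4.3.3), quasi-likelihood, robust, group as the only term, two-sided, with Benjamini-Hochberg adjustment over all tested genes and a threshold of 0.05. CPM uses the TMM-scaled library sizes, and a standard error is the log2 fold change divided by the root of its F statistic. Where a group had no read, folds use a floor of 3 reads over the group.

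The genes and lists were chosen with earlier results of these data known. From each list the 4 tested genes with the highest mean level over all 6 libraries were named. Positions are from GENCODE M21 and promoters from RefSeq GRCm38.p6. The fit was tested on simulated data. As alternatives, scaling used RLE factors, upper-quartile factors or none; genes were filtered at 5 CPM in 3 libraries or not at all; the test was DESeq2 1.42.0 or limma-voom (limma 3.58.1); a replicate block was added; calls needed an adjusted p under 0.01 or a fold over 1.5; and Rn45s or each library was left out. Some genes of the lists and neighbours are not reported here. Plots used matplotlib 3.10.9.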

Additional observations from a re-analysis of the deposited data

How the results depend on the processing

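The levels of the 10 genes kept their separation between groups under each other scaling, without Rn45s and without each library. With 16 control reads against 47939 in the other group, such changes could hardly undo it, so this is not read as support. Of 265 alternative values of list and gene counts, 251 stayed within 1.5 times the main count. The 251 include 10 values of that same separation. They also include 17 counts of other ITAM chains that rose and 17 of those that fell, all 0. Such values could hardly change, so the tally is not read as support either. The total of genes called ranged from 5301 (minimum fold of 1.5, 2382 of them higher) to 8245. With library size alone, 1 partner receptor and 2 kinases were lower. With the filter of 5 CPM in 3 libraries, 7 partner receptors were higher, because fewer were tested. With DESeq2, 2 kinases were lower. At an adjusted p of 0.01, 2 TREM2 ligand and protease genes were lower. With a minimum fold of 1.5, 1 effector was lower, and 5 TREM2 ligand and protease genes were higher and 1 lower. Over the left-out libraries, partner receptors that rose numbered 11 to 15 and those that fell 0 to 1. Kinases that fell numbered 1 to 2, and TREM2 ligand and protease genes that fell 2 to 4. In these fits the filter was computed anew, and with a group of 2 libraries more genes of low level can be tested. With no filter, 15 partner receptors were also higher. Apart from the filter and the stricter thresholds, the cause of these changes was not tested. The replicate numbers were not shown to pair the libraries (correlations of same-numbered libraries' deviations 0.0954, 0.0422 and 0.05), although each library correlated best with its own number. In the fit with the replicate block, 2 kinases were lower, Src among them (adjusted p = 0.00927). Low depth limits Fcgr1, with 19 reads in all, and the ratios that rest on 1 to 7 control reads.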
